A study of Rattus norvegicus with 6 samples.

Results

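Cadherins are calcium-dependent adhesion proteins that join neighbouring cells by pairing with the same or a related cadherin on the facing membrane. This account follows 9 cadherin genes of mesenchymal, vascular, neural, muscle, epithelial and developing kidney cells in cultured rat amniotic fluid cells. They are Cdh2, Cdh3, Cdh4, Cdh5, Cdh6, Cdh10, Cdh11, Cdh13 and Cdh15, taken by gene symbol, and all 9 were found among the 22085 genes of the table. Amniotic fluid was collected by hysterectomy on embryonic day 18.5 from control pregnant rats and from rats with a preeclampsia model. Its cells, labelled mesenchymal stem cells, were grown in serum-containing medium and sequenced at passage 4, with 3 libraries per group. How the model was induced, the rat strain and age, and how many animals each library holds are not given in the sources used here. P-values therefore measure the spread between these libraries, which may be partly technical.

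Classical cadherins bind beta-catenin and p120-catenin through their cytoplasmic tail, and alpha-catenin links that complex to actin. Type I members (Cdh2, Cdh3, Cdh4 and Cdh15 here) and type II members (Cdh5, Cdh6, Cdh10 and Cdh11) differ in the adhesive face of their outermost domain. Cdh13, or T-cadherin, has no transmembrane part and is held in the membrane by a lipid anchor. Mesenchymal cells typically carry Cdh2 and Cdh11 in place of the epithelial Cdh1, endothelium carries Cdh5, and differentiating skeletal muscle carries Cdh15.

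The cultures held mainly mesenchymal cadherins. Cdh11 was the highest member by FPKM (fragments counted per kilobase, scaled to the library total), followed by Cdh2, with Cdh13 and Cdh3 below them. Together these 4 made up 99.48% to 99.89% of the summed FPKM of the 9 members in each library. Comparing genes by FPKM relies on the gene length behind it, and counts did not always give the same order, as set out below. The other 5, the endothelial Cdh5 and the muscle Cdh15 among them, stayed at or below 0.820 FPKM in every library. No member passed the test between the groups.

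Values for a group are given below in the order of its libraries 1, 2 and 3. Library totals ran from 48402185 to 59193961 counts, and Cdh2, for example, had 4924 to 16360 of them. The libraries labelled preeclampsia 2 and 3 stood apart from the other 4 on the first principal component of log2 CPM (counts scaled to library size), at 69.2 and 68.5 against -44.4 to -18.0. Macrophage markers (9 of 9 in the table) summed to 25.3 to 137 FPKM in the control libraries and to 26.0, 357 and 176 FPKM in preeclampsia libraries 1 to 3. Proliferation markers (8 of 8) summed to 53.2 to 138 FPKM in controls and to 260, 51.0 and 54.6 FPKM in preeclampsia libraries 1 to 3. Mesenchymal markers (8 of 8) summed to 4136 to 5839 FPKM in the control and 5822 to 7521 FPKM in the preeclampsia libraries. The collagen genes Col1a1 and Col1a2 together made up most of this sum in every library. Of the 8 markers, 6 had a higher and 2 a lower fitted level in the preeclampsia group. In bulk RNA, fewer cells of a type and less RNA per cell cannot be told apart.

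Cdh11, or OB-cadherin, a type II cadherin of fibroblasts and bone-forming cells, stood at 204, 101 and 117 FPKM in the controls. The preeclampsia libraries stood at 169, 77.7 and 142 FPKM. The groups overlapped throughout, with the highest library a control and the lowest a preeclampsia library. Group levels were 141 ± 55.4 and 130 ± 46.9 FPKM (SD, n = 3 each). The log2 fold change of preeclampsia over control was -0.12 (SE 0.38), with a 95% interval of -1.04 to 0.79 and an adjusted p of 0.945 by edgeR's quasi-likelihood test. The interval reaches well to both sides of 0, so these libraries do not show that the level was equal.

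Cdh2, or N-cadherin, the type I cadherin that mesenchymal and neural cells share, stood at 70.3, 65.3 and 87.0 FPKM in the controls. Its preeclampsia values were 26.0, 41.4 and 72.2 FPKM. Libraries 1 and 2 of the preeclampsia group lay below every control, while library 3 lay among the controls. The means were 74.2 ± 11.4 and 46.5 ± 23.5 FPKM, and the log2 fold change was -0.64 (SE 0.37, 95% interval -1.55 to 0.26, adjusted p = 0.679). Preeclampsia library 1, which had the lowest Cdh2, also had the highest proliferation markers, and their part in the difference was not tested. Without that library the log2 fold change was -0.34, and without preeclampsia library 3 it was -1.11, both in the same direction and neither called.

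Cdh3, or P-cadherin, a type I cadherin of placenta and basal epithelia, stood at 11.6, 15.2 and 19.7 FPKM in the controls. It was at 10.3, 8.87 and 14.6 FPKM in the preeclampsia libraries. Preeclampsia libraries 1 and 2 were again below all controls, and library 3 lay among them. The log2 fold change was -0.43 (SE 0.25, 95% interval -1.03 to 0.16, adjusted p = 0.675). Epithelial markers, which often accompany Cdh3, were also lower in the preeclampsia libraries by the measured values: those in the table (7 of 9 listed) summed to 3.94 to 55.0 FPKM in the control and 0.500 to 1.58 FPKM in the preeclampsia libraries, which do not overlap. In every library but control 1 most of that was the keratin gene Krt8, at 1.12, 37.4 and 8.41 FPKM in the controls and 0.400, 1.22 and 1.35 FPKM in the preeclampsia libraries. Epcam and Cdh1, the epithelial cadherin, were at or below 0.10 FPKM in every library. The part of epithelial cells in the Cdh3 difference was not tested. Cdh3 was highest in control library 3, while Krt8 was highest in control library 2.

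Cdh13, the lipid-anchored cadherin known as a receptor for adiponectin, showed the widest spread of the 4 abundant members. Control values were close together at 19, 16.4 and 15.9 FPKM. Preeclampsia library 1 was higher than all of them at 24.3 FPKM, and libraries 2 and 3 were lower, at 6.08 and 2.45 FPKM. The preeclampsia libraries thus differed among themselves by 9.91-fold and the controls by 1.2-fold. The log2 fold change was -0.66 (SE 0.75, 95% interval -2.46 to 1.14, adjusted p = 0.850). Without preeclampsia library 1 it was -1.95 with an adjusted p of 0.270, and without library 3 it was -0.19. With libraries 2 and 3 both left out it was 0.47, in the opposite direction. The low Cdh13 libraries were those that stood apart on the first principal component and had the highest macrophage marker sums, and their part in the spread was not tested.

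**Figure D1:**
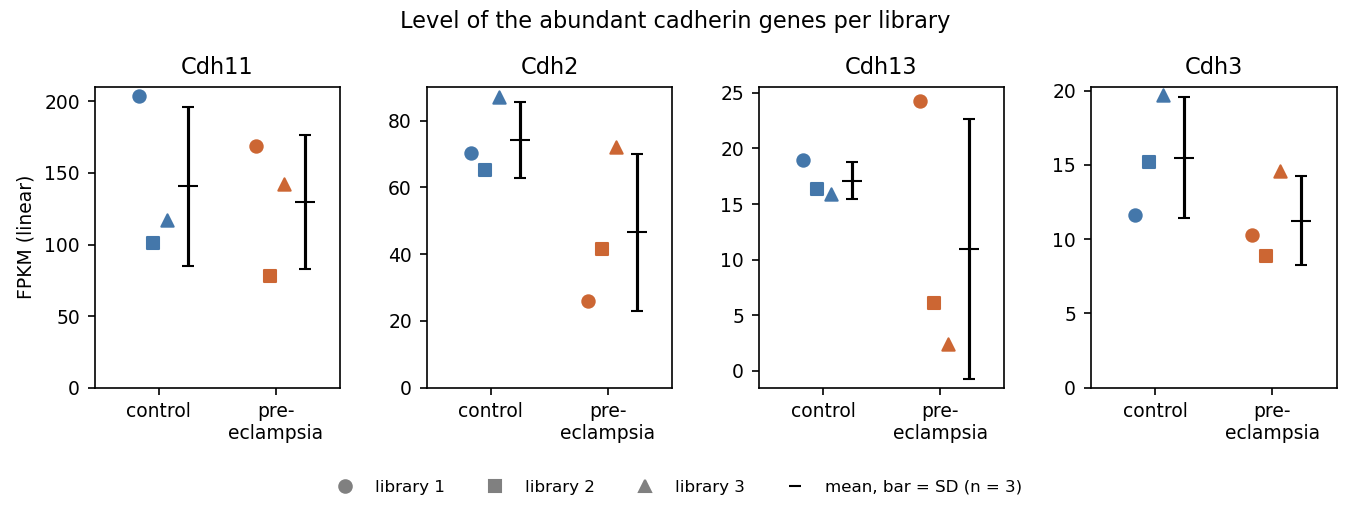
FPKM of Cdh11, Cdh2, Cdh13 and Cdh3 in each library on linear axes that differ between panels, with the mean and SD of each group of 3 beside the points; the axis of Cdh13 starts below 0 only to show its SD bar. The groups overlap in all 4 genes, and Cdh13 spans 2.45 to 24.3 FPKM in the preeclampsia libraries against 15.9 to 19 FPKM in the controls.

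Within a library, FPKM gave a steady order at the top and a loose one below. By FPKM, Cdh11 exceeded Cdh2 in 6 of 6 libraries, although the range of the one over all libraries overlapped that of the other. By deposited counts, which are not divided by length, Cdh2 was the higher in libraries 2 and 3 of both groups. Cdh2 had 12342 and 16360 counts in those controls, where Cdh11 had 8870 and 10283. In those preeclampsia libraries Cdh2 had 8967 and 12771 counts, and Cdh11 had 7845 and 11731. The ratio of Cdh11 FPKM to Cdh2 FPKM was 2.90, 1.54 and 1.35 among controls and 6.51, 1.88 and 1.97 among preeclampsia libraries. Cdh2 exceeded Cdh13 in 6 of 6 libraries, with ranges that did not meet. Cdh13 and Cdh3 could not be ordered by FPKM, since Cdh13 was the higher in 3 of 6 libraries. By counts, Cdh3 was the higher in every library. Cdh3 lay above Cdh10, the next member, in 6 of 6 libraries with ranges apart, and no neighbours below that had separate ranges. The number of counts behind 1 unit of summed FPKM was 87.4 for Cdh11, 90.0 for Cdh13, 188 for Cdh2 and 306 for Cdh3. It was 1027 for Cdh5, where FPKM is rounded to 2 decimals, so the place of Cdh5 at the bottom of the order rests on the length behind its FPKM. The order of Cdh11 and Cdh2, their ratio and the shares below rest on the lengths behind FPKM too.

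As a share of the summed FPKM of the 9 genes, Cdh11 took 66.8%, 50.9% and 48.8% in the controls and 73.4%, 57.7% and 61.2% in the preeclampsia libraries. Cdh2 took 23.0%, 33% and 36.2% in the controls and 11.3%, 30.7% and 31.1% in the preeclampsia libraries. The mean share of Cdh11 was 8.58 percentage points higher in the preeclampsia group by the measured values (exact two-sided permutation p = 0.30, adjusted p = 0.675 over the 9 members). For Cdh2 the difference was -6.40 points (exact permutation p = 0.500, adjusted p = 0.787). With 3 libraries against 3 this test cannot go below 0.1, so it could not pass a threshold of 0.05 here. The difference for Cdh11 was 3.93 points without preeclampsia library 1 and 14.2 points without control library 1, and it was 5.23 points without control library 3. Preeclampsia library 1 alone set the direction for Cdh2, whose difference was 0.136 points without it. The summed level was 248 ± 54.2 FPKM in the control and 199 ± 55.8 FPKM in the preeclampsia group (exact permutation p = 0.400).

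**Figure D2:**
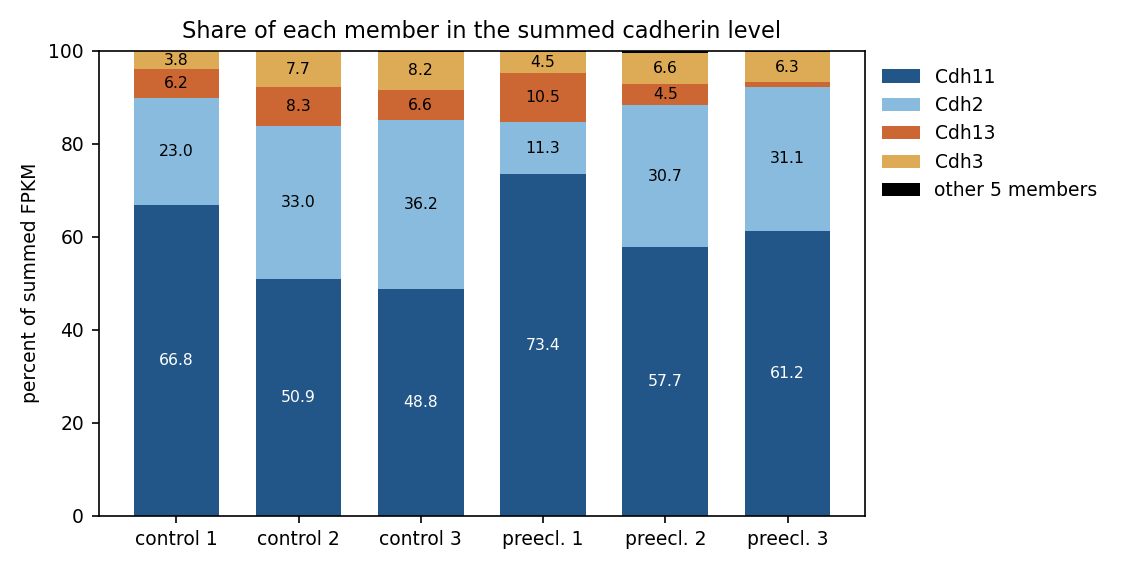
Percent of the summed FPKM of the 9 cadherin genes taken by each of the 4 abundant members, per library, with the other 5 members as a black strip at the top that is too thin to see in most libraries. Cdh11 runs from 48.8% to 73.4% and Cdh2 from 11.3% to 36.2%, with preeclampsia library 1 at the high end for Cdh11 and the low end for Cdh2.

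Cdh15, or M-cadherin, a type I cadherin of muscle precursor cells, was the member with the smallest p. Counts of 0, 4 and 0 were recorded among controls against 27, 16 and 14 among preeclampsia libraries. Every preeclampsia library was above every control, and the highest level, in preeclampsia library 1, was only 0.110 FPKM. The log2 fold change was 3.69 (SE 1.21, 95% interval 0.75 to 6.62), with an unadjusted p of 0.0214 and an adjusted p of 0.473. Cdh15 passed the filter on low counts through the preeclampsia libraries alone, where it is high, so a difference was built into its being tested, and its p and interval are a description. It was the 1 of 8 tested members with an unadjusted p below 0.05, where 9.19% of all tested genes had one. It was also the 1 member whose groups did not overlap, with preeclampsia higher, where 6.15% of all tested genes were of that kind. Neither count is read as a result about the members. The control counts all came from control library 2, without which both remaining controls were at 0. The myogenic factor gene Myod1 was at 0.250 FPKM (30 counts) in preeclampsia library 1 and at 0 counts in the other 5 libraries. Other listed myogenic genes did not share that pattern. Pax3 had 0, 34 and 4 counts in the controls and 0, 0 and 49 counts in the preeclampsia libraries. Pax7 was counted in preeclampsia library 3 alone (4 counts) and Chrna1 in preeclampsia library 2 alone (12 counts). Myogenic markers in the table (5 of 8 listed) summed to 0.70 to 12 FPKM in the control and 1.95 to 8.68 FPKM in the preeclampsia libraries, most of it Des, or desmin, and their part in the Cdh15 counts was not tested.

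Cdh10, a type II cadherin of brain, had 0, 0 and 59 counts among controls and 53, 92 and 120 counts among preeclampsia libraries. The gene was thus counted in every preeclampsia library, while control library 3 reached the level of preeclampsia library 1. The log2 fold change was 2.2 (SE 1.68, 95% interval -1.86 to 6.25, adjusted p = 0.768). The control counts all came from control library 3, without which both remaining controls were at 0. Cdh10 could therefore not have passed the filter on low counts without the preeclampsia libraries, where it is high. Its p and interval are a description too. Cdh6, a type II cadherin of the developing kidney, had counts of 80, 32 and 8 in the controls and of 44, 21 and 0 in the preeclampsia libraries. Its log2 fold change of -1.02 (SE 1.40, adjusted p = 0.873) turned to 0.07 without control library 1.

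Cdh5, or VE-cadherin, the junction protein of endothelium, had 10, 14 and 8 counts in the controls and 8, 45 and 28 counts in the preeclampsia libraries. Preeclampsia libraries 2 and 3 lay above the others, and library 1 did not. Those 2 libraries also had the highest macrophage marker sums, and their part was not tested. The log2 fold change was 1.28 (SE 0.71, 95% interval -0.45 to 3.00, adjusted p = 0.667), and it was -0.47 with preeclampsia libraries 2 and 3 left out. Cdh5 was at no more than 0.0400 FPKM in any library. Of the endothelial markers, Pecam1, Cldn5 and Sox18 were at or below 0.0300 FPKM throughout, while Kdr reached 3.19, Ptprb 1.76, Esam 1.69 and Tie1 1.28 FPKM in their highest library. The 11 endothelial markers in the table summed to 6.22 to 7.59 FPKM in the control and 5.66 to 11.2 FPKM in the preeclampsia libraries, with Egfl7 the highest of them in each library at 3.26 to 7.53 FPKM. By level, the vascular members were thus represented by Cdh13, which is not restricted to endothelium. Cdh4, or R-cadherin of retina and brain, had 3, 8 and 8 counts in the controls and 15, 0 and 0 in the preeclampsia libraries, and was too low to be tested.

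**Figure D3:**
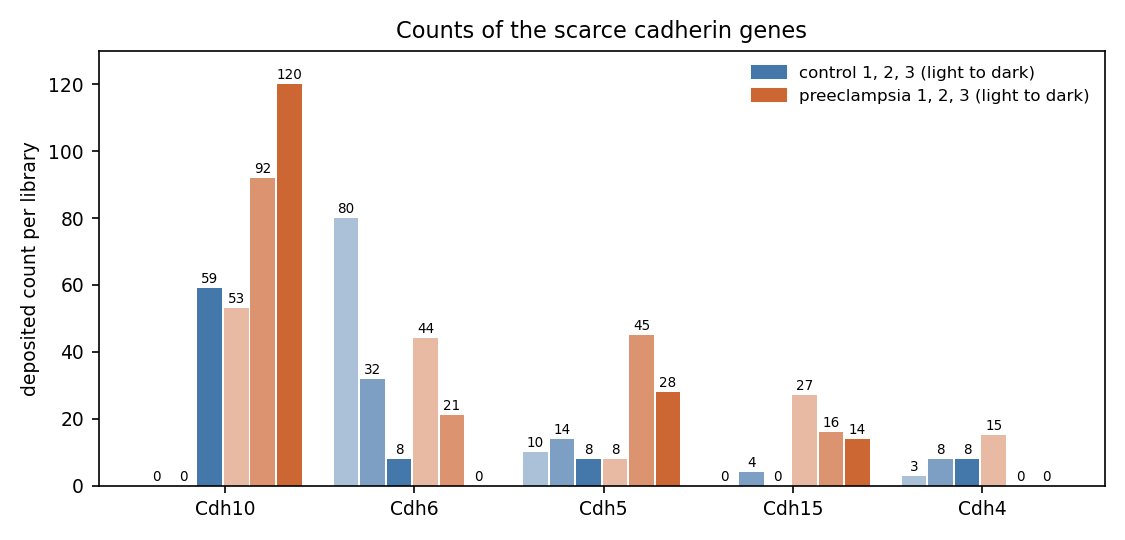
Deposited counts of the 5 scarce members in each library, with control bars in blue and preeclampsia bars in orange, library 1 lightest and library 3 darkest. Cdh15 is the member whose groups do not overlap, at 0 to 4 counts in controls and 14 to 27 counts in preeclampsia libraries.

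Over the 8 members tested, 3 had a higher and 5 a lower fitted level in the preeclampsia group, with a median log2 fold change of -0.28 against 0.01 over all genes tested. EdgeR called 0 of 8, against 0% of the 15776 genes tested (0 called at an adjusted p under 0.05, 1450 at an unadjusted p under 0.05). DESeq2 called 0 members, against 1.71% of the genes for which it gave an adjusted p. The 3 members with a higher fitted level (Cdh15, Cdh10 and Cdh5) were all scarce, and the 4 abundant members all had a lower one. Cdh6, which was scarce too, also had a lower one. The split by abundance did not hold for Cdh11, which had a higher fitted level without control library 1 or without preeclampsia library 2. With preeclampsia libraries 2 and 3 both left out, Cdh13 was higher, at 0.47, and Cdh5 was lower, at -0.47.

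**Figure D4:**
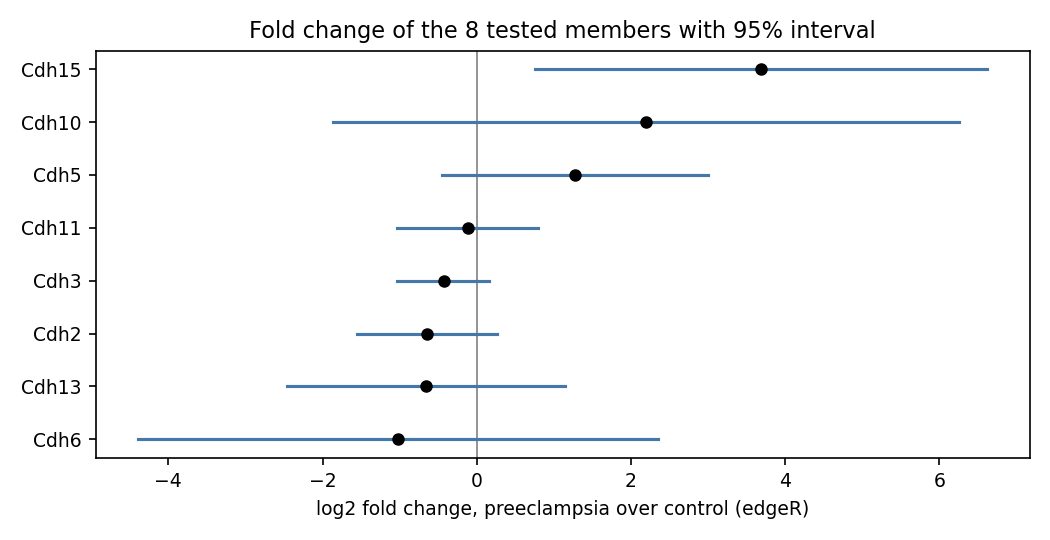
Log2 fold change of preeclampsia over control for the 8 tested members by edgeR, with the 95% interval of each as a line. The intervals of Cdh3, Cdh11 and Cdh2 are the narrowest, and that of Cdh15, at 0.75 to 6.62 before adjustment, lies off 0 in a gene that passed the filter only through the group where it is high.

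Several members share a chromosome. By the coordinates of the table (genome build not given in the sources), 5 of the 9 lie on chromosome 19. They are Cdh5 (815415 to 854478, minus strand), Cdh11 (2148447 to 2305754), Cdh3 (34393596 to 34444084), Cdh13 (46349562 to 47387462) and Cdh15 (50903757 to 50927151), the last 4 on the plus strand. Cdh5, with 8 to 45 counts per library, and the abundant Cdh11 lie 1293969 bases apart. On chromosome 2, Cdh6 (62079139 to 62225228, minus strand) and Cdh10 (68628623 to 68850995, plus strand) are 6403395 bases apart. Cdh2 spans 7776704 to 7990934 on the minus strand of chromosome 18, and Cdh4 spans 166525098 to 167003380 on the plus strand of chromosome 3. The annotation terms in the table were likewise shared. All 9 carried the term for the catenin complex, which 27 genes of the table carry, and 8 of 9, all but Cdh13, carried the term for an integral component of membrane.

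RefSeq promoter sequences of build GRCr8 were at hand for 3 of the 9 members, Cdh6, Cdh10 and Cdh15. The 250 bases before the annotated start of the chromosome 2 pair are shown because they hold a common stretch, given in capitals. That of Cdh6 lies at chr2:63952288-63952537 on the minus strand and that of Cdh10 at chr2:70355439-70355688 on the plus strand, both written 5′ to 3′ along the gene.
Cdh6: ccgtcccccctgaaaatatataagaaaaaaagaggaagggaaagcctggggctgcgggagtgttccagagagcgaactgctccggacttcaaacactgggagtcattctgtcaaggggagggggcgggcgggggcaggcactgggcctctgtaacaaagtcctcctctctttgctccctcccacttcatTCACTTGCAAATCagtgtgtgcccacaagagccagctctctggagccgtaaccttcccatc
Cdh10: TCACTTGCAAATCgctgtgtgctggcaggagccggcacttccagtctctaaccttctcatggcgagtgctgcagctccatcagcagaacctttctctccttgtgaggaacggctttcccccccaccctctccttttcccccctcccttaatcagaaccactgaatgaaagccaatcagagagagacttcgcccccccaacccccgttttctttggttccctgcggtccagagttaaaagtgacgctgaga
The longest run common to both was 13 bases, TCACTTGCAAATC. It begins 61 bases before the start in Cdh6 and 250 bases before it in Cdh10. That is the first base of the Cdh10 window, so the common stretch may reach further upstream than is shown. Some letters just after it are alike as well, among them tgtgtg in both, and no alignment was made. On either strand it was present in 2 of 33469 promoter windows of the same length (0.00598%), these 2. The longest run that either shared with Cdh15 was 7 bases. None of the 3 windows held CAGGTG or its reverse complement CACCTG, letters bound by SNAI and ZEB factors, which 15.9% of all windows hold. The palindrome CAGCTG of myogenic factors, present in 12% of windows, was also not among their letters. These are descriptions of sequence and not binding sites, and in these libraries Cdh6 was highest in control library 1, where Cdh10 had 0 counts, and Cdh10 was highest in preeclampsia library 3, where Cdh6 had 0 counts.

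The other cadherins on a list of numbered Cdh genes were scarce as well. Of 14 listed, 11 were in the table and 5 were tested, with 1 higher, 4 lower and 0 called (median log2 fold change -0.36). Those with the highest levels were Cdh24 at 0.940 ± 0.156 FPKM in the control and 0.780 ± 0.24 FPKM in the preeclampsia group, followed by Cdh18, Cdh17 and Cdh7. Cdh18, a type II cadherin of brain, was at 0.36, 0.620 and 0.930 FPKM in the controls and 0.200, 0.370 and 0.190 FPKM in the preeclampsia libraries. Its log2 fold change was -1.28 (SE 0.45, unadjusted p = 0.0275, adjusted p = 0.478 by edgeR), and its groups overlapped.

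Catenins join cadherin tails to actin, and their FPKM differed widely from gene to gene. Of 9 listed genes 8 were tested, 3 higher and 5 lower, with 0 called and a median log2 fold change of -0.09. The neural Ctnna2 and the heart and testis form Ctnna3 were scarce, with means of 0.125 and 0.0117 FPKM over all libraries, and Arvcf was at 1.25 FPKM. Ctnna1, or alpha-catenin, was at 243 ± 27.5 FPKM in the control and 243 ± 15.9 FPKM in the preeclampsia group. Ctnnd1, the p120-catenin that holds cadherins at the surface, was at 198 ± 12.9 and 181 ± 46.0 FPKM. Its lowest value was the 145 FPKM of preeclampsia library 1, which also had the lowest Cdh2. Jup, or plakoglobin, was at 47.7 ± 6.25 and 40.7 ± 10.8 FPKM, with its lowest value of 28.2 FPKM in that same library. Ctnnb1, or beta-catenin, was at 34.0 ± 2.65 and 36.0 ± 3.77 FPKM and was highest there, at 40.2 FPKM. Its deposited counts were 25891 to 33819 per library, near the 27102 to 35362 of Ctnna1. The gap between these genes in FPKM therefore rests on the lengths behind it, and FPKM does not show that Ctnnb1 was the scarcer.

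Nectins and actin linkers of the adherens junction held 10 tested genes, 3 higher and 7 lower, with 0 called and a median of -0.12. Vcl, or vinculin, which strengthens junctions under tension, was at 806, 298 and 254 FPKM in the controls and at 280, 152 and 212 FPKM in the preeclampsia libraries (log2 fold change -1.09, SE 0.51, adjusted p = 0.594). Its high control library 1 was also the library with the highest Cdh11. Lima1, an actin cross-linker, was at 51.9 ± 2.54 and 51.6 ± 3.45 FPKM, Afdn, or afadin, at 54.6 ± 23.2 and 34.1 ± 6.35 FPKM, and Ptpn1 at 24.4 ± 5.55 and 29.5 ± 4.08 FPKM. In this list 3 of 10 genes had an unadjusted p below 0.05, where 9.19% of all tested genes had one, and they are named here after their values were seen. Nectin3 was at 9.84 ± 0.539 and 7.16 ± 0.523 FPKM (-0.44, SE 0.10, adjusted p = 0.410) and Nectin2 at 19.5 ± 3.76 and 29.5 ± 4.61 FPKM (0.62, SE 0.19, adjusted p = 0.470). Ptprm, a receptor phosphatase that associates with cadherins, was at 5.49 ± 2.01 and 3.00 ± 0.485 FPKM (-0.84, SE 0.26, adjusted p = 0.470). The groups did not overlap in these 3 genes and in Vezt, at 12.9, 12 and 11.5 FPKM in the controls and 10.3, 10.7 and 10.4 FPKM in the preeclampsia libraries, so in 4 of 10. Over all tested genes 14.5% did not overlap in 1 direction or the other.

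The list of proteases that cut cadherins had all 7 of its genes tested, 3 higher and 4 lower, with 0 called and a median of -0.03. Adam10, the main sheddase of Cdh2, was at 76.0 ± 4.64 FPKM in the control and 66.4 ± 9.23 FPKM in the preeclampsia group. Mmp14 was at 47.4 ± 7.19 and 45.6 ± 8.97 FPKM, and Furin, which trims cadherin precursors, at 42.0 ± 6.12 and 43.2 ± 9.89 FPKM.

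Transcription factors that direct the change from Cdh1 to Cdh2 were all measured, with 8 tested, 4 higher, 4 lower and 0 called (median 0.04). Prrx1, a mesenchymal factor, was at 452 ± 80.8 and 557 ± 137 FPKM, Zeb2 at 37.1 ± 9.67 and 31.7 ± 7.66 FPKM, Zeb1 at 31.9 ± 13.1 and 24.4 ± 11.7 FPKM and Twist1 at 25.2 ± 11.8 and 26.7 ± 5.75 FPKM. Snai1 and Twist2, named after their values were seen, were the 2 of 8 with an unadjusted p below 0.05, where 9.19% of all tested genes had one. Snai1, a repressor of Cdh1, was at 6.60, 10.1 and 12.9 FPKM in the controls and 12.1, 18.6 and 17.7 FPKM in the preeclampsia libraries (log2 fold change 0.75, SE 0.28, adjusted p = 0.501). Twist2 was at 7.26 ± 3.44 and 15.5 ± 5.29 FPKM (1.13, SE 0.42, adjusted p = 0.499). In both genes the groups overlapped. The 1 gene of the list whose groups did not was Snai2, at 2.59, 1.07 and 1.00 FPKM in the controls and 0.920, 0.650 and 0.750 FPKM in the preeclampsia libraries (log2 fold change -1.01, SE 0.44, unadjusted p = 0.0587, adjusted p = 0.566 by edgeR), also named after its values were seen.

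**Figure D5:**
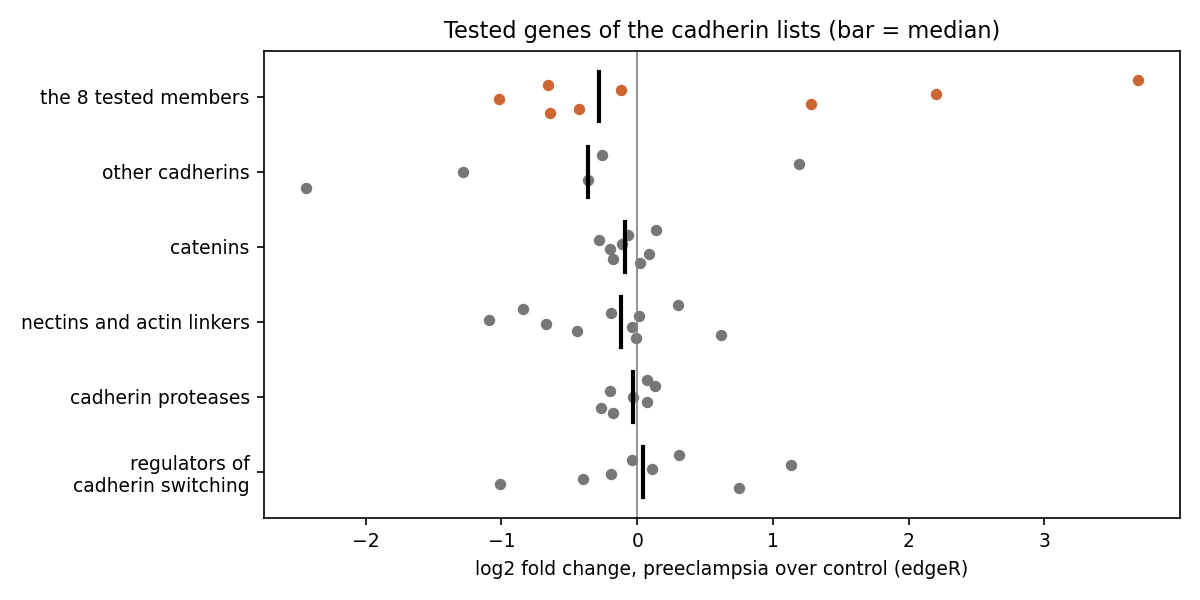
Log2 fold change of preeclampsia over control by edgeR for each tested gene of the 9 cadherins (orange) and of 5 related lists (grey), with the median of each list as a black bar. The medians lie between -0.36 and 0.04, and the 8 tested cadherins span -1.02 to 3.69.

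The genes whose levels varied most like those of the leading members were found by the root mean square difference between log2 CPM, each centred on its mean over the 6 libraries. For Cdh11 they were Ugt1a2 (0.115), Prrg1 (0.150) and St8sia4 (0.153), where the median over all genes was 0.558. Ugt1a2 was at 10.5, 4.86 and 6.38 FPKM in the controls and 9.58, 4.80 and 7.27 FPKM in the preeclampsia libraries. It shares exons with other genes of its cluster, so its counts are uncertain, and St8sia4 was at or below 0.13 FPKM. For Cdh2 they were Slc23a1 (0.159), Ina (0.163) and Tsc22d1 (0.164), against a median of 0.675. Tsc22d1, a leucine zipper gene, was at 214, 231 and 320 FPKM in the controls and 96.6, 156 and 202 FPKM in the preeclampsia libraries, lowest in preeclampsia library 1 as Cdh2 was (log2 fold change -0.72, SE 0.30, adjusted p = 0.552).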

How the data were processed

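For each gene the authors deposited an integer count and an FPKM level in every library, as the file headers name them. The labels' protocols describe poly(A) RNA, random priming and adapters with molecular identifiers. Tools listed in the submitters' processing notes, with no role stated, are HISAT2 2.2.1, StringTie 2.1.6, cutadapt 1.9 and FastQC. The genome build, any collapsing of identical molecules and the use of strand are not given in the sources. Between 35.1% and 38.0% of counts from 1 to 15 were multiples of 4, against 20.0% if evenly spread, so the deposited low counts may not be single fragments.

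Counts were filtered (filterByExpr), scaled by TMM and tested over 15776 genes by quasi-likelihood in edgeR 4.0.16 (R 4.3.3), the group as the only term, with Benjamini-Hochberg adjustment and calls at an adjusted p under 0.05. The median SE of a log2 fold change was 0.263 over all tested genes. Shares of summed FPKM were compared by an exact two-sided permutation test. No 2 libraries were duplicates (smallest chi-square per gene 111). Alternatives were DESeq2 1.42.0, limma 3.58.1 on log2(FPKM + 1 or 0.1), each library left out, a block for replicate number, other scalings and no filter. Leaving out preeclampsia libraries 2 and 3 together was added after seeing the data. Scripts were tested on simulated data.

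The cadherins and gene lists were chosen with earlier results of these data known. Named were all 9 cadherins, the 4 genes with the highest mean FPKM of each list and any called, and the 3 genes nearest in pattern to each of the 2 most abundant cadherins. Listed genes with an unadjusted p under 0.05, and Vezt and Snai2, were named besides, after their values were seen. This naming covered the lists of cadherins, catenins, nectins and actin linkers, proteases and transcription factors. It did not cover the cell type markers, and not every marker with such a p is named. Pdgfra, Col1a2 and Krt18 are among the markers that had one. Listed genes that were not in the table were left out. A gene that this rule names in the list of proteases is not reported here.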

Additional observations from a re-analysis of the deposited data

How the results depend on the processing

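Of 112 alternative values for the 8 tested cadherins, 105 kept the direction and 7 reversed it, and none was called (adjusted p from 0.221 to 0.998). With preeclampsia libraries 2 and 3 left out together, the log2 fold change was -0.47 for Cdh5, 0.02 for Cdh6, 0.22 for Cdh11 and 0.47 for Cdh13; the lone preeclampsia library was then taken to vary as the controls did. Leaving out each library in turn gave -2.10 to 0.07 for Cdh6, -0.33 to 0.29 for Cdh11, -1.11 to -0.34 for Cdh2, -0.67 to -0.24 for Cdh3 and -1.95 to -0.19 for Cdh13. The difference in share of the summed FPKM then ran from -10.3 to 0.136 points for Cdh2, -2.15 to 0.0423 for Cdh3, -4.25 to 0.494 for Cdh13, -0.0509 to 0.00787 for Cdh6, -0.0145 to 7.3e-04 for Cdh4 and 3.93 to 14.2 for Cdh11. Over all genes 302 were called by DESeq2, 1 by limma on log2(FPKM + 1) without a filter, and 0 to 2 with a library left out; 0 cadherins were called in any of these. The cause of these shifts was not tested.

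Whether the replicate numbers pair the libraries could not be decided from the values. The deviations of same-numbered libraries from their group means correlated at 0.05, 0.04 and 0.01. Those of libraries with unlike numbers correlated at -0.08 to 0.04, the highest being control library 3 with preeclampsia library 2. Such weak correlations over groups of 3 libraries cannot exclude a pairing. With the replicate number as a block, 0 genes were called, Cdh13 was at -1.24, Cdh2 at -0.76, Cdh3 at -0.44 and Cdh10 at 4.60. The unadjusted p of Cdh3 by edgeR was 0.0308 with the block (adjusted p = 0.617) and 0.128 without it. With the block the unadjusted p was also lower for Cdh2, Cdh6, Cdh10, Cdh11 and Cdh13, and it was higher for Cdh5 and Cdh15. Depth limits Cdh4, Cdh5, Cdh6, Cdh10 and Cdh15, for which a count of 0 allows up to 0.0507 to 0.0620 CPM, a limit that covers counting error only.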

Other observations

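Marker genes of other cell types were also summed in each library. Mesothelial markers (6 of 6 in the table) came to 5.38 to 15.3 FPKM in the control and 17.7 to 31.9 FPKM in the preeclampsia libraries, which do not overlap. Msln, or mesothelin, alone set that apart, at 1.06, 2.03 and 1.76 FPKM in control libraries and 17.0, 11.8 and 20.9 FPKM in preeclampsia libraries (log2 fold change 3.38, SE 0.31, adjusted p = 0.228 by edgeR). Of the 5 tested markers 2 had a higher and 3 a lower fitted level. Neural and Schwann markers (8 of 8) came to 56.5 to 162 and 94.1 to 186 FPKM, with Sox10 at 0 throughout. Kidney epithelium markers (4 of 7) came to 4.14 to 15.5 and 5.93 to 10.8 FPKM. Their part in the cadherin values was not tested.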
